A study of Mus musculus with 18 samples.

Results

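The 10 genes described here are Nupr1 and 9 genes of the integrated stress response that runs through the transcription factor ATF4, namely Atf4, Ddit3, Atf3, Trib3, Chac1, Asns, Sesn2, Ddit4 and Cebpb, out of 23420 gene symbols counted in mouse retina. They were chosen by name from knowledge of the pathway, with earlier results of these mice known, and Nupr1 was selected on its own difference between TD139-treated and vehicle-treated mice. The values of Nupr1 are therefore a description with no test, and the p-values of the other 9 genes are no independent support for the choice. All 10 genes passed the filter on low counts, which kept 15196 symbols.

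In the integrated stress response, kinases that sense misfolded proteins, lack of amino acids, viral RNA or lack of haem phosphorylate the translation factor eIF2, which lowers protein synthesis in general while translation of the Atf4 mRNA rises. ATF4 then binds DNA in pairs with other bZIP factors, C/EBP proteins among them, and raises genes of amino acid uptake and synthesis and, when the stress lasts, of cell death. NUPR1 is a small stress-induced nuclear protein that acts on transcription. Because ATF4 is set largely at translation, the mRNA level of Atf4 does not stand for its protein.

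Retinas came from Balb/cJ mice, an albino strain, of genotype wt, 8 to 10 weeks old and of both sexes. The 3 naïve mice had neither light nor treatment. The 3 vehicle mice and the 3 TD139 mice were dark-adapted, had their pupils dilated, were exposed to white light of 15000 lux for 1 h and were analysed 4 days later. TD139, a small-molecule inhibitor of the lectin galectin-3, was injected intraperitoneally at 15 mg/kg every day from the day before the light, and vehicle mice had the solvent DMSO instead. Vehicle against naïve mice therefore compares light, its preparation and DMSO injections together, which cannot be told apart, whereas TD139 against vehicle mice compares the inhibitor in retinas that all had the light. Both differences use the same 3 vehicle mice, so that a vehicle mouse with an unusual level moves them in opposite directions. The whole retina was sequenced, and fewer cells of a type and less RNA per cell cannot be told apart.

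Each mouse had between 26171887 and 30201517 counts on genes, and levels are given in CPM, counts scaled to a common library size with TMM factors. A count of 3 corresponded to 0.0993 to 0.115 CPM. Counts of Y-linked genes showed 1 male among the naïve mice and 2 males in each light-exposed group. Vehicle mouse 2 stood apart by its 4 lens genes, which summed to 6100 CPM against 0.383 to 240.4 CPM in the other 8 mice, and without it 4, 4 and 0 of the 10 genes were called in the 3 comparisons, as with it. Of all genes, 620 were then called higher and 353 lower in vehicle against naïve mice. In TD139 against vehicle mice these were 1910 and 1844, and in TD139 against naïve mice 0 and 0. Rod, cone and bipolar cell markers were present in every mouse, with summed rod markers between 38029 and 74726 CPM.

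The promoter sequences are shown because the best known route from ATF4 to its targets is the C/EBP-ATF composite element, a short site bound by ATF4 paired with a C/EBP protein. The letters TGATGNAAN, searched on both strands, occurred in 5 of the 10 promoters of these genes (from 250 bases before to 50 after the start, RefSeq, GRCm38.p6) and in 3.95% of all 32851 promoters of that length. The matches, in capitals and read along the strand of the gene, were as follows.
Nupr1: ATTGCATCA
Atf3: CTTGCATCA
Chac1: GTTGCATCA
Trib3: TTTACATCA
Asns: TGATGAAAC

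Counted from the start at +1, the match lay from -111 to -103 in both Nupr1 and Atf3, from -194 to -186 in Chac1, from -23 to -15 in Asns and from 14 to 22 in Trib3. The start used lies well inside the annotated gene for Nupr1 (chr7:126623249-126630861) and Atf3 (chr1:191170296-191218039), both on the minus strand. Other starts were not searched. The fuller form TGATGCAAT, which the first pattern contains, was found in the Nupr1 promoter and in 0.192% of all promoters. The ATF/CRE letters TGACGTCA were in 0 of the 10 promoters and in 1.79% of all promoters, and the AP-1 letters TGANTCA in that of Ddit3 and in 7.81% of all promoters. The promoters of Nupr1 and Chac1, with their matches in capitals, and that of Cebpb, which held none of these letters, are given because all 3 vehicle mice lay above all other mice for these 3 genes.
Nupr1 (chr7:126625421-126625720, minus strand): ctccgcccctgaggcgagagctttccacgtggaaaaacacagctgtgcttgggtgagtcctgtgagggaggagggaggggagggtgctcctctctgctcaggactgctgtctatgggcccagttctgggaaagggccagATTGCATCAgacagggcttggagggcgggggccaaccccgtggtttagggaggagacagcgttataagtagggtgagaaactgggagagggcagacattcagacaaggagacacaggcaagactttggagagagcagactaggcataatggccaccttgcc
Chac1 (chr2:119350992-119351291, plus strand): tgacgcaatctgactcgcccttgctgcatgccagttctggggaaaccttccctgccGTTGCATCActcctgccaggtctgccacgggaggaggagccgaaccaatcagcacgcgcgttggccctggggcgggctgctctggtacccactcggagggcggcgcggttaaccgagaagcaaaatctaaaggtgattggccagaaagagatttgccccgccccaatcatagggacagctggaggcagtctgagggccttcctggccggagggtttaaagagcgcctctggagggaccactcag
Cebpb (chr2:167688665-167688964, plus strand): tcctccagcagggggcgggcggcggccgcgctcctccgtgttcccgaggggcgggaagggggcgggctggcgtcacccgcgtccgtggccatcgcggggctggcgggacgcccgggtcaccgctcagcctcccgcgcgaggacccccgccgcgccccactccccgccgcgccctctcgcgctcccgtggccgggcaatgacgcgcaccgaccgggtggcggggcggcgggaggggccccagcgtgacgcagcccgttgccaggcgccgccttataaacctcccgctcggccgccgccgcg

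Nupr1 (ENSMUSG00000030717.9, chr7:126623249-126630861, minus strand, GRCm38) was low in naïve retinas at 5.61, 5.05 and 4.44 CPM, high in vehicle mice at 59.7, 95.8 and 108 CPM, and low again in TD139 mice at 5.89, 1.74 and 2.25 CPM. The vehicle mice did not overlap with either of the other groups, while naïve and TD139 mice overlapped through TD139 mouse 1. The group means were 5.03 ± 0.587, 87.8 ± 25.1 and 3.30 ± 2.27 CPM (SD, n = 3 each). The fitted log2 difference was 4.13 (SE 0.44) for vehicle against naïve mice, a 17.5-fold higher level, and -4.74 (SE 0.46) for TD139 against vehicle mice. With a mouse left out these ran from 3.95 to 4.35 and from -5.46 to -4.42. For TD139 against naïve mice the difference was -0.61 (SE 0.44), with -1.33 without TD139 mouse 1, -0.29 without TD139 mouse 2, -0.39 without TD139 mouse 3, -1.09 with limma voom and -0.21 with transcript length and GC content corrected. The males among the mice ran from 5.61 CPM in the naïve group over 59.7 and 95.8 CPM with vehicle to 5.89 and 2.25 CPM with TD139, and the females lay at 5.05 and 4.44, at 108 and at 1.74 CPM.

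**Figure D1:**
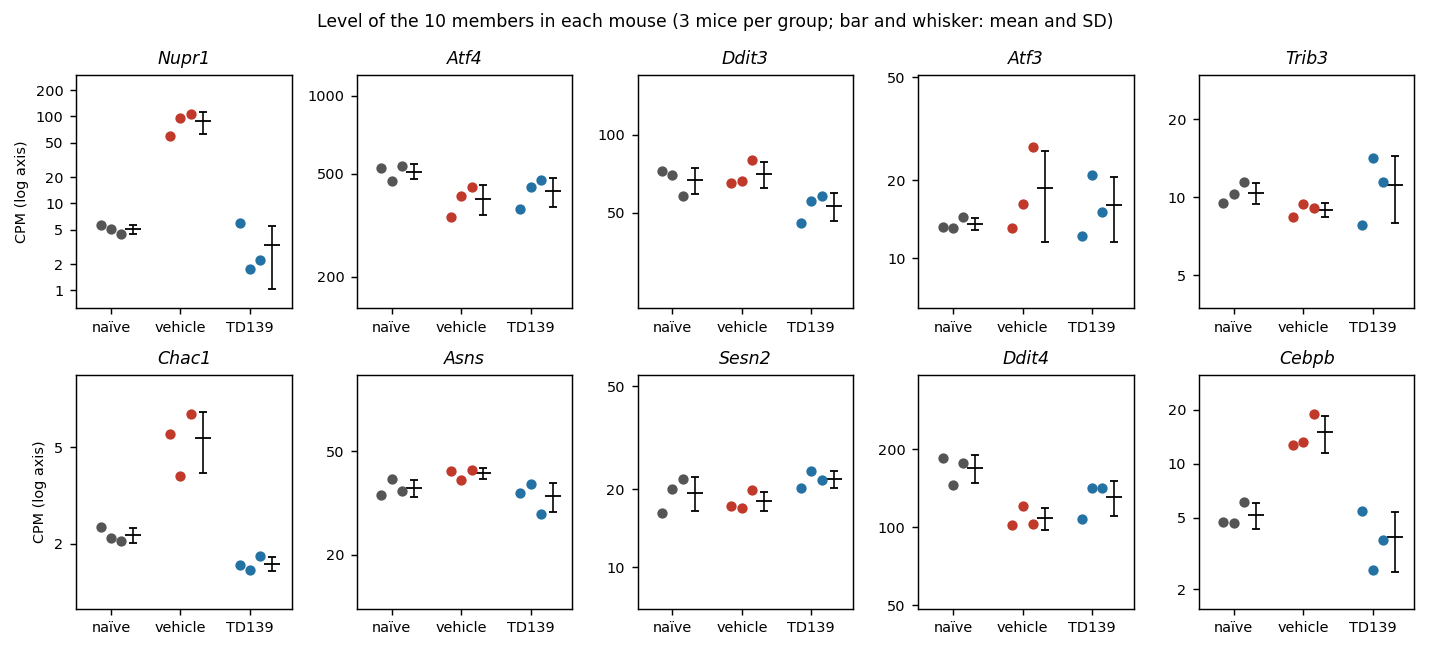
CPM (log axis) of the 10 genes in each of the 9 mice, with 1 point per mouse and the mean and SD of each group of 3 beside it. Nupr1, Chac1 and Cebpb are higher in all 3 vehicle mice than in all naïve and TD139 mice, while Ddit4 is lower in all 3 vehicle mice than in all naïve mice.

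Per kilobase of transcript (RPKM), Atf4 was the most abundant of the 10 in every group, with a mean of 295 in naïve, 231 in vehicle and 248 in TD139 mice. In naïve mice it was followed by Ddit4 with 96.3, Ddit3 with 75.1 and Asns with 17.9 RPKM, whose ranges over mice did not overlap. Atf3, Nupr1, Sesn2 and Trib3 came next between 6.84 and 5.14 RPKM, and each overlapped with its neighbour in this order. Cebpb with 3.46 and Chac1 with 1.32 RPKM were the lowest. In vehicle mice Nupr1 stood second with 106 RPKM, in a range that overlapped with that of Ddit3 at 79.1 RPKM, and in TD139 mice it stood at 3.98 RPKM, between Trib3 and Cebpb and overlapping with both.

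The transcription factors of the pathway did not move together. Cebpb encodes C/EBP beta, a bZIP factor of inflammation that can pair with ATF4 and that CHOP also binds. It stood at 4.73, 4.71 and 6.16 CPM in naïve, 12.8, 13.2 and 19.0 CPM in vehicle and 5.45, 2.57 and 3.79 CPM in TD139 mice. The vehicle mice lay above both other groups, which overlapped. Cebpb rose by 1.53 on the log2 scale in vehicle against naïve mice (SE 0.27, edgeR adjusted p = 0.0173) and fell by 1.93 in TD139 against vehicle mice (SE 0.27, adjusted p = 0.00500). The rise did not pass without naïve mouse 1 (adjusted p = 0.0562), naïve mouse 2 (0.0753) or vehicle mouse 3 (0.0630), whereas the fall passed whichever mouse was left out. Of all genes, 746 were called higher and 439 lower in vehicle against naïve mice. These were 62 and 29 without naïve mouse 1, 1 and 0 without naïve mouse 2 and 65 and 19 without vehicle mouse 3. Cebpb (chr2:167688915-167690418, plus strand) overlaps with Tmem189 on the opposite strand over 908 bases, and whether counting used the strand is not given in the sources used here. Tmem189 had a log2 difference of 0.30 (adjusted p = 0.118) in vehicle against naïve mice and fell by 0.33 (adjusted p = 0.0451) in TD139 against vehicle mice.

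Atf4 itself, the factor after which the pathway is named, was measured at 524, 471 and 533 CPM in naïve, 342, 410.2 and 446 CPM in vehicle and 366, 444 and 471 CPM in TD139 mice. The vehicle mice lay below the naïve mice, and the TD139 mice overlapped with the vehicle mice. The log2 differences were -0.35 (SE 0.13, edgeR adjusted p = 0.104) for vehicle against naïve and 0.10 (SE 0.13, adjusted p = 0.575) for TD139 against vehicle mice. Under limma voom the first of these passed, with -0.33 and an adjusted p of 0.0405.

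Ddit3 encodes CHOP, the factor linked to cell death under lasting endoplasmic reticulum stress. Its levels were 72.4, 70.1 and 57.9 CPM in naïve, 64.9, 66.3 and 79.9 CPM in vehicle and 45.5, 55.6 and 57.8 CPM in TD139 mice. Naïve and vehicle mice overlapped, with a log2 difference of 0.08 (edgeR adjusted p = 0.732), and the TD139 mice lay below both. Ddit3 fell by 0.41 on the log2 scale in TD139 against vehicle mice (SE 0.13, adjusted p = 0.0318), and the call was lost without vehicle mouse 3 (-0.31, adjusted p = 0.123) and without TD139 mouse 1 (0.0831), 2 (0.0758) or 3 (0.0597). After a correction for transcript length and GC content the difference was 0.13 (adjusted p = 0.516). Ddit3 overlaps over 68 bases with Mars on the opposite strand, which was at 104 ± 5.98, 94.1 ± 5.46 and 114 ± 9.20 CPM in naïve, vehicle and TD139 mice, and their reads there cannot be told apart without the strand setting. Against naïve mice the difference of Ddit3 was -0.33 (adjusted p = 0.116), and -0.42 (adjusted p = 0.0494) without naïve mouse 3.

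Atf3, a bZIP factor induced early in many stresses, was at 13.3, 13.1 and 14.4 CPM in naïve, 13.2, 16.2 and 26.9 CPM in vehicle and 12.2, 21.1 and 15.1 CPM in TD139 mice. Its groups overlapped in all 3 comparisons. Vehicle mouse 3 was the highest, and the log2 difference from naïve mice was 0.47 (SE 0.26, edgeR adjusted p = 0.274) with it and 0.11 without it.

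Among the enzymes and effectors that ATF4 induces, Chac1 followed the order of Nupr1. CHAC1 degrades glutathione and its gene is a sensitive target of ATF4. Its level was 2.34, 2.11 and 2.05 CPM in naïve, 5.68, 3.81 and 6.85 CPM in vehicle and 1.63, 1.57 and 1.78 CPM in TD139 mice, and no groups overlapped in any comparison. Chac1 rose by 1.33 in vehicle against naïve mice (log2, SE 0.25, edgeR adjusted p = 0.0203) and fell by 1.72 in TD139 against vehicle mice (SE 0.26, adjusted p = 0.00500). With TD139 the level differed from naïve mice by -0.39 (SE 0.26, adjusted p = 0.344). These values rest on 44 to 204 counts per mouse. The rise did not pass without naïve mouse 1 (0.0562), 2 (0.0788) or 3 (0.0567), without vehicle mouse 1 (0.0592) or 3 (0.0690), or with the second flow cell alone (0.96, adjusted p = 0.0843), and the fall passed in each of these settings. Of all genes in vehicle against naïve mice, 140 were called higher and 77 lower without naïve mouse 3, and 219 and 30 without vehicle mouse 1.

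Ddit4 moved the other way. It encodes REDD1, an inhibitor of the growth kinase complex mTORC1 that also responds to glucocorticoids and low oxygen. It stood at 185, 146 and 177 CPM in naïve, 102, 121 and 103 CPM in vehicle and 108, 142 and 142 CPM in TD139 mice. The vehicle and the TD139 mice both lay below the naïve mice, and they overlapped with each other. Ddit4 fell by 0.64 on the log2 scale in vehicle against naïve mice (SE 0.13, edgeR adjusted p = 0.0235), a call lost without naïve mouse 1 (0.0656), 2 (0.0651) or 3 (0.0620) and without vehicle mouse 1 (0.0773) or 3 (0.0775). Those fits called fewer of all genes, as given above. The summed level of 6 rod markers was 65353 to 74726 CPM in naïve, 38029 to 53191 CPM in vehicle and 53843 to 66805 CPM in TD139 mice, with 4 of the 6 called lower in vehicle against naïve mice, and their part in the level of Ddit4 was not tested. TD139 against vehicle mice gave 0.27 (SE 0.13, adjusted p = 0.128). That difference was called without TD139 mouse 1 (0.39, adjusted p = 0.0238), with length and GC content corrected (0.70, adjusted p = 0.0196) and by limma voom.

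Trib3, Asns and Sesn2 were not called by edgeR with TMM scaling in any comparison of the 9 mice. Trib3, a pseudokinase that restrains ATF4 and AKT, was at 9.49, 10.3 and 11.4 CPM in naïve, 8.37, 9.43 and 9.04 CPM in vehicle and 7.79, 14.2 and 11.5 CPM in TD139 mice. Asns, which makes asparagine, was at 34.0, 39.2 and 35.04 CPM in naïve, 42.2, 38.7 and 42.5 CPM in vehicle and 34.5, 37.4 and 28.7 CPM in TD139 mice. Sesn2, a leucine sensor that restrains mTORC1, was at 16.3, 20.05 and 21.9 CPM in naïve, 17.3, 17.0 and 19.8 CPM in vehicle and 20.3, 23.6 and 21.7 CPM in TD139 mice. In TD139 against vehicle mice the TD139 mice lay below for Asns (log2 difference -0.30, SE 0.12, edgeR adjusted p = 0.0680) and above for Sesn2 (0.28, SE 0.14, adjusted p = 0.139), and for Trib3 they overlapped (0.32, SE 0.20, adjusted p = 0.239). Without TD139 mouse 1 the difference of Trib3 was 0.52 (adjusted p = 0.0318). Asns was called with library size alone (-0.38, adjusted p = 0.0348) and by limma voom (-0.35, adjusted p = 0.0319), which also called Sesn2 (0.32, adjusted p = 0.0471). All 3 genes differed from naïve mice by no more than 0.22 in size in vehicle mice, with adjusted p-values of 0.304 to 0.656.

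**Figure D2:**
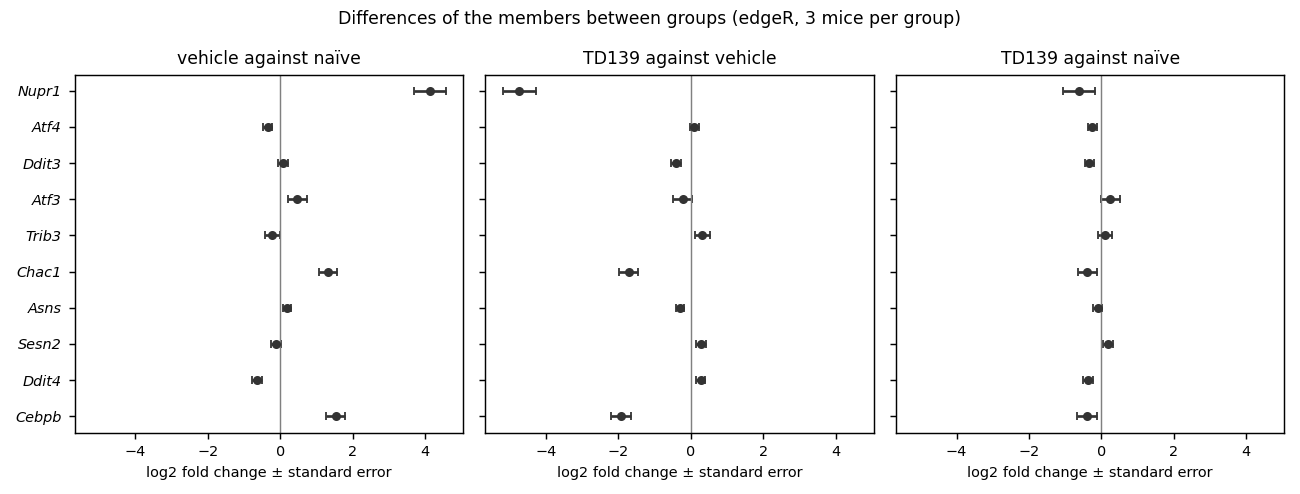
Log2 fold changes of the 10 genes with their standard errors in the 3 comparisons, 3 mice per group. Nupr1, Cebpb and Chac1 lie to the right of 0 in vehicle against naïve mice and to the left in TD139 against vehicle mice, and the other 7 genes lie within 0.65 of 0 throughout.

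Counted over the set, 3 of the 10 genes were called higher and 1 lower in vehicle against naïve mice at an adjusted p under 0.05, where 4.91% of all genes tested were called higher and 2.89% lower. In TD139 against vehicle mice 0 were called higher and 4 lower, against 17.2% and 16.2% of all genes. At an unadjusted p under 0.05 the count was 5, all lower, beside 7053 of all 15196 genes in either direction. In TD139 against naïve mice 0 of 10 were called, against 2.72% higher and 2.38% lower of all genes. An unadjusted p under 0.05 was found for 2 of the 10 and for 4492 of all 15196 genes. DESeq2 called 0 of the 10 and limma voom 1 in that comparison. Of all genes DESeq2 called 1429 higher and 1157 lower, and limma voom 2833 and 2298. Nupr1 is in these counts and was chosen on its difference, so nothing is read from them about the pathway.

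Groups of 3 against 3 did not overlap for 6 of the 10 genes in vehicle against naïve mice, where 33.3% of all genes did not overlap. The corresponding counts were 6 of 10 against 51.5% in TD139 against vehicle mice and 3 of 10 against 32.2% in TD139 against naïve mice. An exact permutation test on 3 against 3 mice cannot go below p = 0.1, so none was used for single genes. The median log2 difference of the 10 genes was 0.13, -0.26 and -0.29 in the 3 comparisons, in the order above, and that of all genes was -0.0018, -0.02 and -0.0023. Scaled by library size alone, 77.6% rather than 63.0% of all called genes were higher in vehicle against naïve mice, 39.0% rather than 51.6% in TD139 against vehicle and 65.4% rather than 53.3% in TD139 against naïve mice.

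Differences between TD139 and the other groups varied with transcript length, and the TD139 libraries stood apart in their reads outside genes. Reads on no feature were 21.3%, 22.8% and 22.6% of the total in TD139 mice, against 19.1% to 19.9% in naïve and 16.5% to 19.4% in vehicle mice, and ambiguous reads were 0.303% to 0.363% in TD139 mice against 0.374% to 0.471% in the other 6 mice. The part of this in the TD139 differences was not tested. Over 15070 genes, the log2 difference correlated with length with a Spearman's rho of -0.10 for vehicle against naïve, 0.49 for TD139 against vehicle and 0.60 for TD139 against naïve mice, across genes that are not independent. The 977 genes under 1000 bases had a median of -0.48 in TD139 against vehicle mice, and Nupr1 with 829 and Ddit3 with 890 bases are among them. With length and GC content corrected, the differences of TD139 against vehicle mice were -4.23 for Nupr1, -1.54 for Cebpb (adjusted p = 0.0116) and -1.28 for Chac1 (adjusted p = 0.0127). Atf4 then rose, with 0.46 and an adjusted p of 0.0388.

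**Figure D3:**
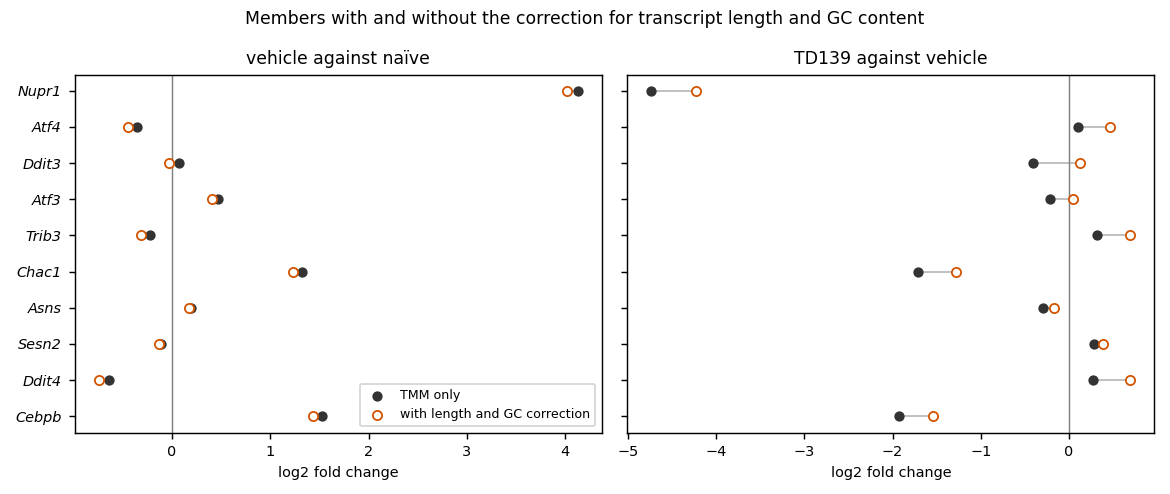
Log2 fold changes of the 10 genes with TMM scaling alone (filled) and with a correction for transcript length and GC content (open), for vehicle against naïve and TD139 against vehicle mice. In the second comparison all 10 open points lie to the right of the filled ones, and those of Nupr1, Cebpb and Chac1 stay left of 0.

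Markers of microglia and macrophages moved with Nupr1, Cebpb and Chac1. The 10 markers summed to 54.6 to 63.3 CPM in naïve, 206 to 356 CPM in vehicle and 43.0 to 134 CPM in TD139 mice, and none was at 0 throughout. All 10 were higher in vehicle than in naïve mice, 7 of them called, and 8 were called lower in TD139 against vehicle mice. Within groups, the naïve mice had the same order in Nupr1, in Chac1 and in the marker sum (63.3, 55.8 and 54.6 CPM), the vehicle mice the same order in Chac1 and in the sum (279, 206 and 356 CPM), and TD139 mouse 1 had the highest sum, Nupr1 and Cebpb of its group. The other orders differed from that of the sum. Vehicle mouse 1, with a sum of 279 CPM, had less Nupr1 (59.7 CPM) than vehicle mouse 2 (95.8 CPM). Vehicle mouse 2 had the lowest sum of that group (206 CPM), whereas Cebpb was lowest in vehicle mouse 1 (12.8 CPM). Cebpb was highest in naïve mouse 3 (6.16 CPM) and Chac1 in TD139 mouse 3 (1.78 CPM), each with the lowest sum of its group. TD139 mouse 2, with a higher sum than TD139 mouse 3 (50.8 against 43.0 CPM), had less Nupr1 (1.74 against 2.25 CPM) and less Cebpb (2.57 against 3.79 CPM). Astrocyte and reactive glia markers summed to 228 to 323, 588 to 832 and 151 to 295 CPM in the same order, and Müller glia markers to 3952 to 4669, 5199 to 5743 and 4590 to 5374 CPM. Recruited leukocyte markers stayed between 1.25 and 2.59 CPM in all mice, with Cd3e at 0. Of 5 retinal pigment epithelium markers, 4 could be tested, and all 4 were higher in vehicle than in naïve mice, with adjusted p-values of 0.187 to 0.424, and lower in TD139 than in vehicle mice, with 2 called (Rpe65 and Ttr). The 5 summed to 99.95 to 242 CPM in naïve, 208 to 433 CPM in vehicle and 120.1 to 173 CPM in TD139 mice. The part of these cells in the levels of the 3 genes was not tested.

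**Figure D4:**
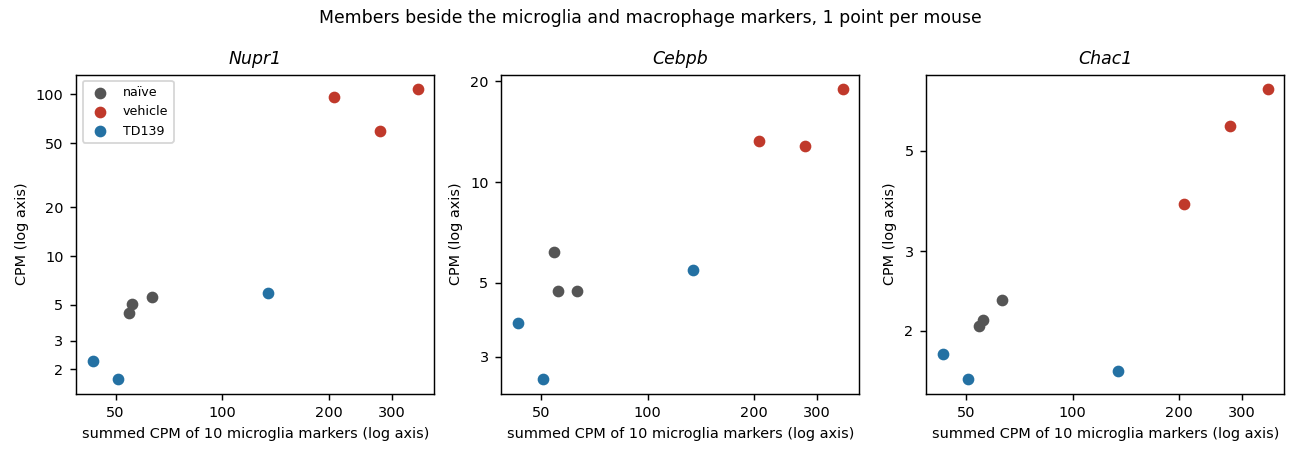
CPM of Nupr1, Cebpb and Chac1 against the summed CPM of 10 microglia and macrophage markers, both on log axes, with 1 point for each of 9 mice. The vehicle mice lie at marker sums of 206 to 356 CPM, above all other mice on both axes.

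Of 109 further genes of the pathway, 105 could be tested. In vehicle against naïve mice 6 rose and 0 fell, or 5.71% and 0%, beside 4.91% and 2.89% of all genes tested. In TD139 against vehicle mice 13 rose and 17 fell, or 12.4% and 16.2%, beside 17.2% and 16.2% of all genes. In TD139 against naïve mice 1 rose and 2 fell, or 0.952% and 1.9%, beside 2.72% and 2.38% of all genes. These shares were near or below those of all genes, so the counts are no result about the pathway. The median log2 difference was -0.02, -0.02 and 0.02, close to that of all genes.

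The bZIP partners of ATF4 held the largest differences. Of 8 genes, 2 rose in vehicle against naïve mice and 5 fell in TD139 against vehicle mice. Cebpa, a myeloid C/EBP factor, was at 1.56 ± 0.420 CPM in naïve, 9.70 ± 2.48 CPM in vehicle and 2.00 ± 1.57 CPM in TD139 mice (SD, n = 3). It rose by 2.63 (SE 0.48, edgeR adjusted p = 0.0206) and fell by 2.27 (SE 0.47, adjusted p = 0.00830), and the fall passed whichever mouse was left out. The difference was then between -3.14, without TD139 mouse 1, and -1.96, without TD139 mouse 2. Cebpd, an acute-phase C/EBP factor, was at 14.3 ± 7.61, 91.8 ± 55.2 and 10.4 ± 6.68 CPM, with 156 CPM in vehicle mouse 3 against 59.0 and 61.0 CPM in the other vehicle mice. Its difference of 2.68 in vehicle against naïve mice did not pass (adjusted p = 0.0584), and it fell by 3.15 with TD139 (SE 0.68, adjusted p = 0.0156), a call lost without TD139 mouse 2 (0.0607) or 3 (0.0651). Atf5, a close relative of Atf4, was at 71.0 ± 13.0, 119 ± 28.1 and 52.4 ± 6.04 CPM and rose by 0.75 (SE 0.18, adjusted p = 0.0320) and fell by 1.18 (SE 0.18, adjusted p = 0.00500), or by 0.78 (adjusted p = 0.0313) with length and GC content corrected. The rises of Cebpa and Atf5 were lost in 5 of the 9 fits that left out a mouse, with adjusted p-values up to 0.0788 and 0.0930. Those fits called fewer of all genes, as given above. Under 12 other alternatives the rise of Cebpa passed in all 12 and that of Atf5 in 9, and with length and GC content corrected Atf5 was at 0.65 (adjusted p = 0.0632).

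Psat1, of serine synthesis, and the carrier genes Slc7a11 and Slc3a2 also rose in vehicle against naïve mice and fell in TD139 against vehicle mice. Psat1 was at 56.3 ± 6.37 CPM in naïve, 99.0 ± 10.3 CPM in vehicle and 57.6 ± 8.34 CPM in TD139 mice. It rose by 0.81 (SE 0.13, edgeR adjusted p = 0.0127) and fell by 0.78 (SE 0.13, adjusted p = 0.00568). Phgdh, which starts this synthesis, differed by 1.54 in vehicle against naïve mice (adjusted p = 0.0661) and fell by 2.08 with TD139 (SE 0.47, adjusted p = 0.0110). Its vehicle mice were at 7.08, 20.3 and 5.17 CPM, and the call was lost without TD139 mouse 2 (0.0578) or 3 (0.0504). Without vehicle mouse 2 the difference was -1.25 (adjusted p = 0.0173). Psph, which ends it, was at -0.08 in vehicle against naïve mice (adjusted p = 0.593) and fell by 0.25 with TD139 (adjusted p = 0.0427), a call that passed in 2 of the 9 fits without a mouse and turned to 0.09 (adjusted p = 0.523) with length and GC content corrected. Of the 7 genes of this list, 1 rose in vehicle mice and 3 fell with TD139.

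Slc7a11, the cystine carrier, was at 10.5 ± 3.11 CPM in naïve, 38.9 ± 6.13 CPM in vehicle and 14.7 ± 4.18 CPM in TD139 mice. It rose by 1.88 (SE 0.24, edgeR adjusted p = 0.0127). The call was lost without naïve mouse 2 (1.82, adjusted p = 0.0651), a fit that called 1 of all 15447 genes higher and 0 lower. Slc7a11 fell by 1.41 with TD139 (SE 0.24, adjusted p = 0.00568), and with length and GC content corrected the difference was -2.07 (adjusted p = 0.00952). Slc3a2, its partner chain, was at 224 ± 11.3, 328 ± 53.2 and 179 ± 19.3 CPM, rose by 0.55 (SE 0.13, adjusted p = 0.0286) and fell by 0.87 (SE 0.13, adjusted p = 0.00500), or by 0.51 (adjusted p = 0.0128) with length and GC content corrected. The rise of Psat1 did not pass without naïve mouse 1 (0.0513) or 2 (0.0651), and that of Slc3a2 in 4 of the 9 fits that left out a mouse. Each of those fits called fewer of all genes, as given above. The falls of Psat1, Slc7a11 and Slc3a2 passed in all 9. Of 13 genes of amino acid transport and synthesis, 2 rose in vehicle mice, and 1 rose and 3 fell with TD139, Cth by 0.47 (adjusted p = 0.0398), which was -0.37 (adjusted p = 0.109) with length and GC content corrected.

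Upstream of ATF4, of the 4 eIF2 kinases, Eif2ak2, which encodes PKR and is also induced by interferon, rose by 1.92 in vehicle against naïve mice (SE 0.49, edgeR adjusted p = 0.0438) and fell by 1.61 with TD139 (SE 0.48, adjusted p = 0.0292). Vehicle mouse 3 stood at 17.8 CPM against 6.08 and 6.89 CPM in the other vehicle mice, and without a mouse the rise passed in 3 and the fall in 6 of 9 fits, and under the other alternatives each passed in 9 of 12. Without vehicle mouse 3 the differences were 1.25 (adjusted p = 0.112) and -0.95 (adjusted p = 0.107). Of 8 eIF2 and eIF2B subunits 0 were called in vehicle against naïve mice. At an unadjusted p under 0.05 there were 0 of the 8, beside 4192 of all 15196 genes. With TD139 Eif2b5 fell by 0.24 (adjusted p = 0.0430). Of the 5 genes that restrain the kinases or dephosphorylate eIF2, Ppp1r15b rose by 0.51 with TD139 (adjusted p = 0.0201). Of 6 genes of the mitochondrial route to ATF4, Clpp fell by 0.58 in TD139 against vehicle mice (adjusted p = 0.00687) and by 0.55 against naïve mice (adjusted p = 0.0420), and Phb2 fell by 0.43 against naïve mice (adjusted p = 0.0468). With length and GC content corrected, Eif2b5 was at -0.09 (adjusted p = 0.347), Ppp1r15b at 0.20 (adjusted p = 0.215) and Clpp at -0.03 (adjusted p = 0.815) in TD139 against vehicle mice. Against naïve mice Clpp was then at -0.11 (adjusted p = 0.560) and Phb2 at -0.05 (adjusted p = 0.827).

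The list of tRNA synthetases, which ATF4 raises in many cells, also holds Xpot and gave 0 calls among its 13 genes in vehicle against naïve mice. Of these 13 genes 0 had an unadjusted p under 0.05, and they ranged from -0.24 to 0.09. Of all 15196 genes, 4192 had an unadjusted p under 0.05 in that comparison. In TD139 against vehicle mice Iars rose by 0.76 (SE 0.16, edgeR adjusted p = 0.00727), Mars rose by 0.28 (adjusted p = 0.0367) and Sars fell by 0.25 (adjusted p = 0.0405). Of 12 genes of stress and death, 0 were called in vehicle against naïve mice and 2 had an unadjusted p under 0.05. With TD139 the lipoprotein receptor gene Vldlr rose by 0.83 (adjusted p = 0.00782) and Sqstm1, an autophagy receptor, fell by 0.56 (adjusted p = 0.00828), and neither passed with length and GC content corrected (0.27, adjusted p = 0.100, and -0.26, adjusted p = 0.109). Of 17 genes of the XBP1 and ATF6 arms, 0 were called in vehicle against naïve mice and 2 had an unadjusted p under 0.05. With TD139 Ern1, which encodes the sensor IRE1, rose by 1.21 (adjusted p = 0.0253), Sel1l by 0.51 (adjusted p = 0.0147) and Atf6 by 0.49 (adjusted p = 0.0150), and with that correction they were at 0.87 (adjusted p = 0.0557), 0.13 (adjusted p = 0.264) and 0.03 (adjusted p = 0.791).

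Among 14 paralogues of the 10 genes, Nupr1l, the relative of Nupr1, was at 6.33 ± 1.95, 5.18 ± 1.58 and 4.21 ± 0.173 CPM in naïve, vehicle and TD139 mice, with log2 differences of -0.29 (edgeR adjusted p = 0.531) and -0.30 (adjusted p = 0.428). In TD139 against vehicle mice 4 of the 14 rose (Atf2, Atf7, Trib2 and Sesn3) and 4 fell, where 17.2% and 16.2% of all genes did. Sesn3, a relative of Sesn2, rose by 1.05 in that comparison (adjusted p = 0.00777) and by 0.89 in TD139 against naïve mice (adjusted p = 0.0467). Of 3 genes whose proteins bind NUPR1, Ep300, a histone acetyltransferase, rose by 1.08 in TD139 against vehicle mice (SE 0.20, adjusted p = 0.00652) and Ptma fell by 0.27 (adjusted p = 0.0196). With length and GC content corrected Ep300 was at 0.64 (adjusted p = 0.0124), Ptma at -0.01 (adjusted p = 0.913) and Sesn3 against naïve mice at 0.46 (adjusted p = 0.209). Over the 9 fits that left out a mouse, several of these differences of TD139 against vehicle mice passed in some, Eif2b5 and Psph in 2, Cth and Sars in 3, Mars and Ern1 in 4, Ppp1r15b and Ptma in 5, and Sel1l and Atf6 in 6. Against naïve mice Clpp passed in 4, Sesn3 in 3 and Phb2 in 2 of them. Clpp against vehicle mice, Iars, Vldlr, Sqstm1 and Ep300 passed in all 9.

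**Figure D5:**
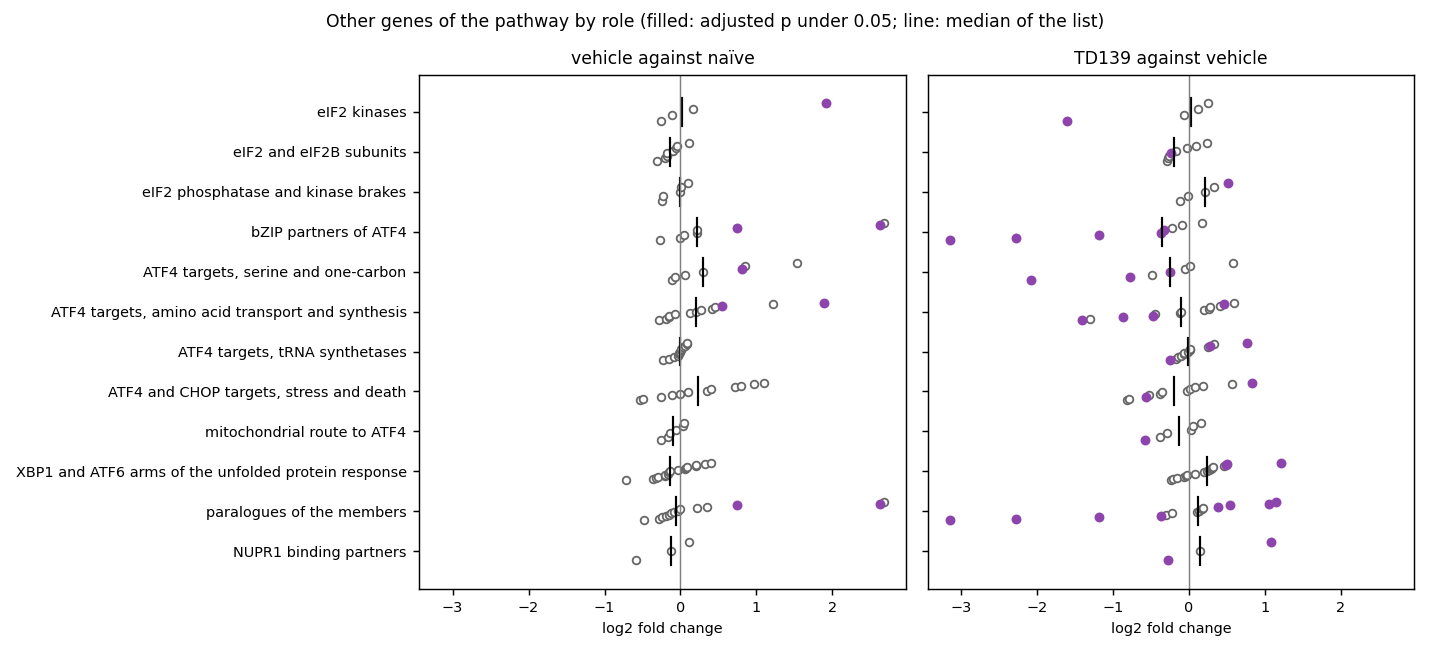
Log2 fold changes of the 105 further pathway genes by role, with the median of each list as a line and genes at an adjusted p under 0.05 filled. The filled points farthest from 0 are the C/EBP factors in the list of bZIP partners, at 2.63 in vehicle against naïve mice and at -3.15 and -2.27 in TD139 against vehicle mice, and they recur among the paralogues.

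Over the 9 mice, log2 CPM of Nupr1 was most like that of Slc9a3r1, a membrane scaffold protein (Pearson's r = 0.994), Slc25a39, a mitochondrial carrier (0.989), Cd63, a tetraspanin (0.988), Timp1, a metalloprotease inhibitor (0.986), and Capg, an actin-capping protein (0.986), among 13092 genes. The 9 points share 3 groups of mice, so these values mainly describe a common order of the groups. Of the other 9 genes described here, Cebpb had 0.97 and Chac1 0.93, Asns 0.71, Ddit3 0.54 and Atf3 0.30, while Atf4 (-0.47), Sesn2 (-0.61), Trib3 (-0.62) and Ddit4 (-0.66) were negative.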

How the data were processed

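The deposited files hold raw read counts per gene symbol, which the authors made with the BaseSpace RNA Express workflow on mm10. The annotation, version and strand setting are not given in the sources used here. Each mouse had a file for each of 2 flow cells, and these were summed because they differed far less than mice did (chi-square per degree of freedom 1.63 to 1.80 between runs, 16.7 to 73.1 between mice). Rows that name no gene were left out: reads on no feature were 16.5% to 22.8% and ambiguous reads 0.303% to 0.471%.

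Counts of all 9 mice were fitted by group with edgeR 4.0.16 in R 4.3.3 (filter by expression, TMM, robust quasi-likelihood F test), with Benjamini-Hochberg adjustment over all 15196 genes and calls at an adjusted p under 0.05. The fits were tested on simulated data. Alternatives used DESeq2 1.42.0, limma 3.58.1 (voom), other scalings and filters, each flow cell alone, mice left out, a replicate block, a length and GC correction (splines of 4 degrees of freedom) and, chosen after seeing the data, sex as a factor. Lengths, GC content and positions come from GENCODE (GRCm38), where 21777 symbols matched directly and 1285 through older names.

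The 10 genes and the pathway and marker lists were chosen with earlier results of these data known. All 10 genes are named. From each pathway list, genes at an adjusted p under 0.05 are named, at most 3 per comparison by size of difference. Atf2, Atf7, Trib2, Xpot and, in TD139 against vehicle mice, Sesn3 are named beyond that rule. Nupr1l was chosen after its values were seen. The 5 genes most like Nupr1 are taken from genes averaging 50 counts or more per mouse. Nothing says that mice came from separate litters, so p-values measure the spread between these mice.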

Additional observations from a re-analysis of the deposited data

How the results depend on the processing

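Under 12 alternatives, TD139 against vehicle mice kept the falls of Chac1 and Cebpb at an adjusted p under 0.05, as did all 9 fits without a mouse. Of the 10 genes, limma voom called 7 rather than 4 in TD139 against vehicle mice and 1 rather than 0 in TD139 against naïve mice. Of all 15196 genes it called 3491 higher and 3356 lower in the first of these comparisons, where edgeR called 2617 and 2455. In the second it called 2833 and 2298, where edgeR called 413 and 362. Without a mouse the counts ran from 0 to 4 in vehicle against naïve, from 3 to 5 in TD139 against vehicle and from 0 to 1 in TD139 against naïve mice. Over all genes, TD139 against vehicle mice had 867 higher and 759 lower without TD139 mouse 2 and 2995 and 2931 without TD139 mouse 1. Over all genes, TD139 against naïve mice had 0 and 0 without naïve mouse 1 and 1523 and 1156 without naïve mouse 3. In vehicle against naïve mice 0 of the 10 genes were called without naïve mouse 2, and 1 remained without naïve mouse 1 or vehicle mouse 3 and 2 without naïve mouse 3 or vehicle mouse 1. Over all genes, 746 were called higher and 439 lower with all mice. These were 1 and 0 without naïve mouse 2, 62 and 29 without naïve mouse 1 and 65 and 19 without vehicle mouse 3. They were 140 and 77 without naïve mouse 3 and 219 and 30 without vehicle mouse 1. The lost calls are therefore no result about the 10 genes.

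Of the other pathway genes, 6 were called in vehicle against naïve mice, against 16 with DESeq2, 18 with limma voom and 12 with the length and GC correction. Over all genes, edgeR called 746 higher and 439 lower there. DESeq2 called 1355 and 1063, limma voom 1839 and 1546, and the correction gave 1169 and 921. In TD139 against vehicle mice the correction left 18 calls rather than 30, of which 15 were shared. Over all genes it left 1482 higher and 1457 lower, where 2617 and 2455 were called without it. In TD139 against naïve mice the 3 calls became 6 with a stricter filter, 15 with DESeq2, 36 with limma voom and 0 with the correction, with the 2 groups alone or with the replicate block. Over all genes that comparison had 413 higher and 362 lower, 657 and 535 with the stricter filter and 1429 and 1157 with DESeq2. It had 2833 and 2298 with limma voom, and 1 and 0 with the 2 groups alone. With the correction or the block it had 0 and 0. Without a mouse the counts ran from 0 to 9, from 11 to 40 and from 0 to 17 in the 3 comparisons, with 11 without TD139 mouse 2 or 3 and 13 without vehicle mouse 3 in the second. Over all genes the second comparison then had 867 higher and 759 lower without TD139 mouse 2. It had 1050 and 867 without TD139 mouse 3, and 1240 and 1286 without vehicle mouse 3. The causes were not tested.

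Among the 10 genes, directions turned for genes that were not called in that comparison, except Ddit3 in TD139 against vehicle mice. For vehicle against naïve mice Ddit3 was at -0.011 with limma voom, -0.026 with the correction and, without a mouse, from -0.027 (vehicle 3) to 0.15. For TD139 against vehicle mice the correction gave 0.13 for Ddit3 and 0.045 for Atf3. Without a mouse Atf3 ran from -0.47 to 0.13 (vehicle 3) and Atf4 from -0.0039 (vehicle 1) to 0.20. For TD139 against naïve mice the correction gave 0.10 for Ddit3, 0.022 for Atf4 and 0.0075 for Asns. Without a mouse Asns ran from -0.18 to 0.0057 (TD139 mouse 3) and Trib3 from -0.11 (TD139 mouse 2) to 0.31.

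Same-numbered mice of different groups did not deviate together (correlations from -0.26 to 0.28), so they share only a number. With the replicate block 4, 4 and 0 of the 10 genes were called, as without it, and 4, 24 and 0 of the pathway genes. Sex as a factor, added after seeing the data, gave 4, 4 and 0, and 4, 24 and 3. Over all genes the block called 559 higher and 341 lower, 2436 and 2336, and 0 and 0 in the same order. With sex as a factor these were 363 and 166, 2503 and 2362, and 419 and 391. Depth limits Chac1 most, with 44 to 204 counts per mouse.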
